A study of Homo sapiens with 8 samples.

Results

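The 10 genes described here encode heat shock factor 1 (HSF1) and 9 chaperones or co-chaperones that heat and protein damage are known to induce: HSPA8, HSPH1, DNAJB1, BAG3, HSP90AA1, HSP90AB1, HSPB1, HSPD1 and HSPE1. They were taken by symbol, as the 10 entries of those names among the 50006 gene entries of the count files. The set was named for cytosolic chaperones, but HSPD1 and HSPE1 encode the chaperonin of the mitochondrial matrix and its lid, so 2 of the 10 are not cytosolic. HSF1 had 7 counts over all 8 libraries and was not tested, and the other 9 passed the filter on low counts.

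RNA was sequenced from BEAS-2B cells, a human bronchial epithelial line immortalised in culture, kept in LHC-9 medium without serum and exposed for 4 h. There were 4 groups of 2 libraries. The aC group received the fibrinogen αC domain, which the series title words as derived from the mite allergen Der m 1. The FCP group received FCPs, an abbreviation the labels do not expand, made with Der m 1. The FBG group received fibrinogen. Each of these was given at 4 ng/µl, and the Mock group received PBS. The labels do not say how the αC domain was prepared.

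In a resting cell, HSF1 is held inactive by chaperones. When misfolded protein draws the chaperones away, HSF1 forms trimers and binds inverted repeats of the unit nGAAn in promoters. HSF1 then raises transcription of chaperone genes such as those described here. HSP70 proteins bind exposed hydrophobic stretches of a client, J-domain proteins deliver clients and start ATP hydrolysis, exchange factors release the client, and HSP90 takes over late folding steps of kinases and steroid receptors.

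Heat shock elements were read in the RefSeq promoter windows of GRCh38.p14, which run from 250 bases before to 50 bases after each annotated start. The search used 3 alternating units, spelled GAANNTTCNNGAA or TTCNNGAANNTTC, each the reverse complement of the other, so both strands were covered. Of the 10 genes 9 had a window in the table, and 4 of these 9 held a match, HSPA8, HSP90AA1, HSP90AB1 and HSPD1. The share was 0.608% of all 27305 genes in RefSeq's windows and 0.49% of all 35116 windows. The shorter form with 2 units, GAANNTTC or TTCNNGAA, which every 3-unit match contains, was present for 6 of the 9 genes and for 16.2% of all genes. The matched stretches are shown because the 4 genes that carry them were all lower in aC than in FCP. Being lower did not set them apart, as DNAJB1, HSPH1 and BAG3, without a 3-unit match, were lower too. Capitals mark the bases of a 3-unit match, each line reads 5′ to 3′ on the gene's own strand, and bases inside annotated exons were left out.
HSPA8, chr11:123062157-123062213, minus strand: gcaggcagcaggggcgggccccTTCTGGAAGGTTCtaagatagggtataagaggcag
HSP90AA1, chr14:102087098-102087154, minus strand: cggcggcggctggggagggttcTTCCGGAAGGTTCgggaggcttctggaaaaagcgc
HSP90AB1, chr6:44247756-44247865, plus strand: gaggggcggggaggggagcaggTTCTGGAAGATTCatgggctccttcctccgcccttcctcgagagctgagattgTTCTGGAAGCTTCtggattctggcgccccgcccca
HSPD1, chr2:197500046-197500090, minus strand: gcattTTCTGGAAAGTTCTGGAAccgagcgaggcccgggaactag
The HSPA8 match shown began 55 bases before an annotated start that lies inside the gene, and a further match 230 bases before the start lay in an exon of another transcript. The HSP90AA1 match began 88 bases before a start inside the annotated gene, and the window at its outer start held none. HSP90AB1 held 2 matches, 165 and 112 bases before an annotated start that lies inside the gene, and its 2 other windows held none. The 2 HSPD1 matches overlapped, at 245 and 240 bases before a start that lies inside the annotated gene, and the window at its outer start held none. A match is a description of the letters and not a site shown to be bound. HSPH1, DNAJB1, BAG3, HSPB1 and HSPE1 had no 3-unit match in these windows, which says only that these letters are not there. The HSPD1 stretch, which ends at 197500090, lies just outside the HSPE1 window, which begins at 197500129.

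Library totals ran from 15137196 to 22258791 counts, lower in FBG and Mock than in aC and FCP, and 16307 genes were tested. Averaged over genes, the variance between the 2 libraries of a group was 1.27 to 1.34 times the counting variance. The p-values thus measure a spread little above sampling noise, and for some abundant genes the fitted SE was below the counting SE. The members' directions against FBG and Mock are set beside a wide difference in the libraries. KRT5, a basal keratin, averaged 1600 CPM, counts scaled to the TMM-corrected library size, in aC and 1580 CPM in FCP, against 7.28 CPM in FBG and 2.03 CPM in Mock. The sum over 9 bronchial epithelial markers was 4530 to 4600 CPM in aC and 4520 to 4590 CPM in FCP, against 1160 to 1180 CPM in FBG and 1310 to 1320 CPM in Mock. The sum over 8 fibroblast and mesenchymal markers was 253 to 254 CPM in aC and 242 CPM in FCP, against 1240 to 1250 CPM in FBG and 2410 to 2440 CPM in Mock, with COL3A1 at 0 in every group. The sum over 5 leukocyte markers lay between 11.8 and 32.7 CPM, with CD3E at 0 in every group, and that over 3 endothelial markers lay at or below 3.21 CPM. In the pairs that cross this division, the exposure and the state of the cells cannot be told apart.

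aC against FCP was the main comparison and lies on one side of that division. In aC cells 7 of the 9 tested members fell and 1, HSPB1, rose, with 8 of 9 called at an adjusted p under 0.05, where 9.01% of all 16307 genes were called, 4.57% as higher and 4.45% as lower. The members' log2 fold changes ran from -0.32 to 0.24 with a median of -0.17, against a median of 0 over all genes, and the median size of the change was 0.22 for the members against 0.1 for all genes. The members were chosen with earlier results of these data known, so these counts are not an independent test. The largest fall was 20% in HSPA8. Calls were more frequent among abundant genes. Among the 4577 genes with a mean of at least 50 CPM, a bound chosen after the values were seen and passed by 8 members, 23% were called, 9.48% as higher and 13.5% as lower. In bulk RNA, fewer expressing cells and less RNA per cell cannot be told apart.

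**Figure D1:**
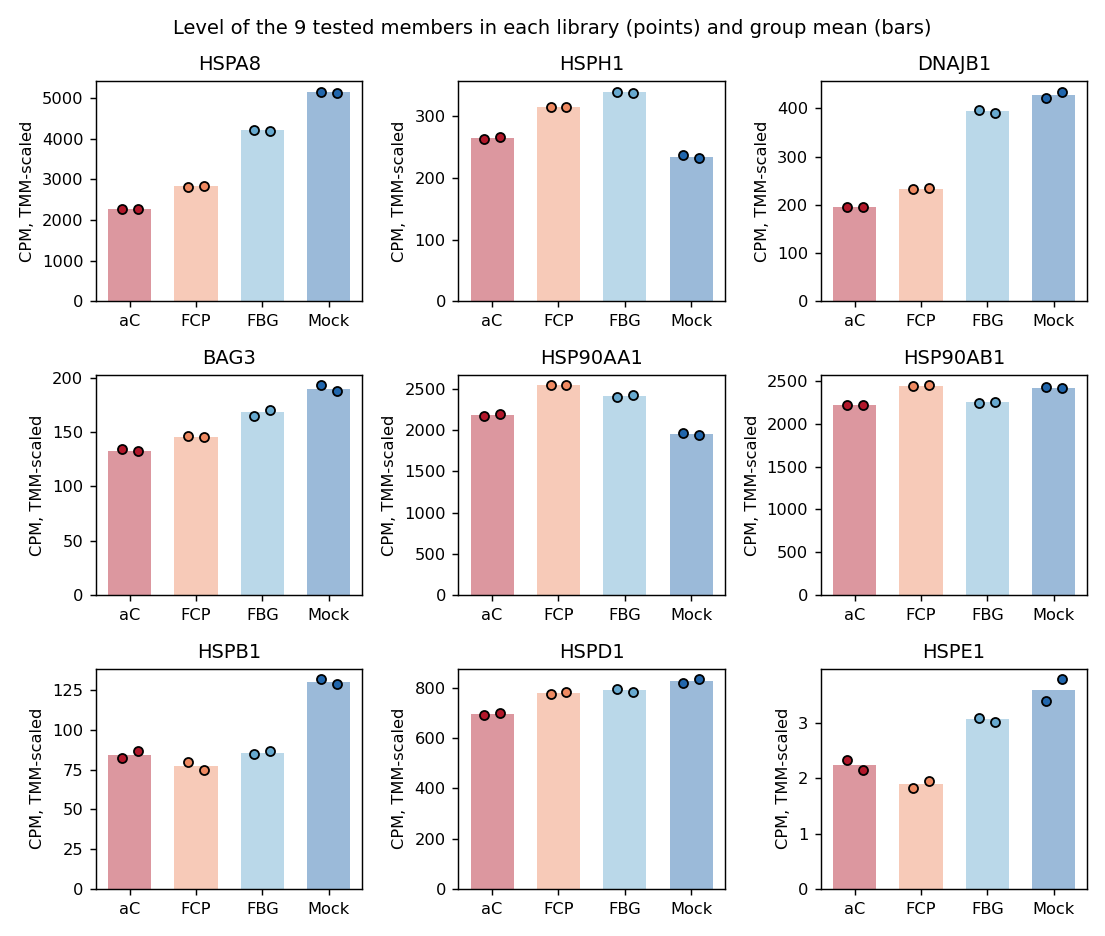
Level of each tested member in CPM scaled by TMM (vertical axes, linear, each from 0) in the aC, FCP, FBG and Mock groups, with a point for each of the 2 libraries and a bar for their mean. HSPA8 is lowest in aC at 2260 and 2270 CPM and highest in Mock at 5160 and 5120 CPM, whereas HSP90AA1 is lowest in Mock.

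HSF1 itself could not be measured well. Its chromosome 8 entry, between 144291604 and 144314720 on the plus strand of GRCh38.p14, had 2 and 1 counts in aC, 2 and 1 in FCP, 0 and 0 in FBG, and 1 and 0 in Mock. The files list a second HSF1 entry on a sequence outside the primary chromosomes, and nearly all HSF1 counts fell there. That entry had 44 and 732 counts in aC, 535 and 1065 in FCP, 34 and 20 in FBG, and 312 and 21 in Mock. The 2 libraries of aC, of FCP and of Mock differed widely, and the aC and FCP ranges overlapped. With both entries summed, an alternative added after the data were seen, the log2 fold change of aC against FCP was -1.09 ± 1.52 (SE; edgeR quasi-likelihood, adjusted p = 0.798). HSF2, a related factor with 1 entry, had 27.9 and 27.5 CPM in aC and 27.6 and 27.4 CPM in FCP, and its log2 fold change of 0.01 ± 0.0646 was not called (adjusted p = 0.96). HSF1 is regulated mainly by its trimerisation and modification, which transcript counts do not measure.

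HSPA8, the constitutive cytosolic HSP70 that folds new proteins and strips clathrin from vesicles, lies between 123057489 and 123062462 on chromosome 11. It was the most abundant member per length in every group. It had 2260 and 2270 CPM in aC, 2820 and 2840 CPM in FCP, 4210 and 4200 CPM in FBG, and 5160 and 5120 CPM in Mock. The 4 groups did not overlap, and aC was the lowest. The fall in aC against FCP was -0.32 ± 0.00672 on the log2 scale (SE; edgeR, adjusted p = 5.28e-05), and 16.7% of all tested genes and 1.35% of the 4577 abundant genes changed by more.

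HSPH1, an HSP110 protein that acts as an exchange factor for HSP70 and helps to pull aggregates apart and lies between 31134973 and 31162388 on chromosome 13, had another order. It had 263 and 267 CPM in aC, 315 and 315 CPM in FCP, 340 and 338 CPM in FBG, and 237 and 232 CPM in Mock. Mock was lowest and aC lay between Mock and FCP, again without overlap. It fell in aC against FCP, with a log2 fold change of -0.25 ± 0.0195 (adjusted p = 7.15e-09, edgeR).

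DNAJB1, the J-domain protein that delivers clients to HSP70 and is among the genes most strongly induced by heat, lies between 14514769 and 14560391 on chromosome 19. It had 195 and 195 CPM in aC, 232 and 235 CPM in FCP, 397 and 391 CPM in FBG, and 421 and 435 CPM in Mock. The levels fell into a low pair of groups, aC and FCP, and a high pair, FBG and Mock. Within the low pair aC was lower, with a log2 fold change of -0.26 ± 0.0215 (adjusted p = 2.14e-08, edgeR). DNAJB1 shares 85 exonic bases, 2.54% of its length, with TECR on the other strand, and counting without strand cannot separate reads there.

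BAG3, an exchange factor that hands HSP70 clients to selective autophagy, lies between 119651380 and 119677819 on chromosome 10. It had 134 and 133 CPM in aC, 146 and 145 CPM in FCP, 165 and 170 CPM in FBG, and 193 and 188 CPM in Mock. It followed the order of HSPA8 over a narrower range. The fall in aC against FCP was -0.13 ± 0.0265 (adjusted p = 0.00294, edgeR), and 42.6% of all tested genes and 14.8% of abundant genes changed by more.

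HSP90AA1, the stress-inducible cytosolic HSP90, lies between 102080742 and 102139749 on chromosome 14. It had 2170 and 2190 CPM in aC, 2540 and 2540 CPM in FCP, 2400 and 2420 CPM in FBG, and 1960 and 1940 CPM in Mock. FCP was highest and Mock lowest, and the groups did not overlap. In aC it fell by 0.22 on the log2 scale against FCP, with a fitted SE of 0.00488 that is smaller than the counting SE of 0.00617 (adjusted p = 6.16e-05, edgeR). It shares 7.79% of its exonic bases with WDR20, whose own level was 39.4 and 38.1 CPM in aC and 41.5 and 40.3 CPM in FCP.

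HSP90AB1, the constitutive cytosolic HSP90, lies between 44246194 and 44253883 on chromosome 6. With TMM scaling it varied least among the 9 tested members across the groups. That rank did not hold with GC and length trends removed or with library size alone, where HSPD1 varied less. It had 2220 and 2220 CPM in aC, 2440 and 2450 CPM in FCP, 2240 and 2250 CPM in FBG, and 2430 and 2420 CPM in Mock. With TMM scaling it divided the groups in another way, with aC and FBG near one level and FCP and Mock near a higher one. This division depended on the scaling. With the trends in GC content and length removed, aC stood 0.18 above FBG and 0.14 above Mock on the log2 scale. FCP then stood 0.25 above Mock. With library size alone, aC stood 0.10 above both FBG and Mock, and FCP stood 0.23 above Mock. The fall in aC against FCP was -0.14 (adjusted p = 1.37e-13, edgeR), where the fitted SE of 0.00173 is again smaller than the counting SE of 0.0062. Per length, the ratio of HSP90AA1 to HSP90AB1 was 0.709 and 0.714 in aC, 0.755 and 0.753 in FCP, 0.776 and 0.78 in FBG, and 0.585 and 0.583 in Mock. HSP90AB1 thus exceeded HSP90AA1 in all 8 libraries, by most in Mock.

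HSPB1, a small heat shock protein that holds unfolded clients and stabilises actin, was the member called higher in aC. The gene lies between 76302673 and 76304292 on chromosome 7. It had 82.1 and 86.6 CPM in aC, 79.8 and 74.9 CPM in FCP, 85 and 86.5 CPM in FBG, and 132 and 129 CPM in Mock. The aC and FCP libraries did not overlap, but the lower aC value and the higher FCP value differed by less than the 2 libraries of either group did. The rise of 0.12 ± 0.0375 (adjusted p = 0.0388, edgeR) lost its call in 8 of 19 other settings. DESeq2 gave an adjusted p of 0.242, and with the trends in GC content and length removed the change was 0.01. HSPB1 shares 5.06% of its 100-base words with the pseudogene HSPB1P1.

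HSPD1, the ATP-driven chaperonin of the mitochondrial matrix, lies between 197486584 and 197500274 on chromosome 2. It had 690 and 698 CPM in aC, 776 and 782 CPM in FCP, 796 and 782 CPM in FBG, and 817 and 834 CPM in Mock. The aC libraries lay below all others, and FCP and FBG overlapped. The fall in aC against FCP was -0.17 ± 0.0152 (adjusted p = 8.92e-08, edgeR). HSPE1 encodes the lid of that chaperonin and is transcribed in the opposite direction from the neighbouring start, between 197500379 and 197503449 on chromosome 2. It had 2.33 and 2.16 CPM in aC, 1.83 and 1.96 CPM in FCP, 3.1 and 3.03 CPM in FBG, and 3.4 and 3.8 CPM in Mock. Its log2 fold change of 0.24 ± 0.226 was not called (adjusted p = 0.649, edgeR). HSPE1 had 392 counts over all libraries, against 116695 for its partner. It shares 40.6% of its exonic bases with the read-through gene HSPE1-MOB4, which had 3 counts in all, and 33.5% of its 100-base words with 5 other genes, so its level is uncertain and its low count does not show a low transcript level.

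Set beside the promoter letters, the 4 genes with a 3-unit heat shock element had log2 fold changes in aC against FCP of -0.32 for HSPA8, -0.22 for HSP90AA1, -0.17 for HSPD1 and -0.14 for HSP90AB1. The tested genes without one in their windows included both larger and smaller falls, with DNAJB1 at -0.26, HSPH1 at -0.25 and BAG3 at -0.13, and the members with positive values, HSPB1 at 0.12 and HSPE1 at 0.24.

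**Figure D2:**
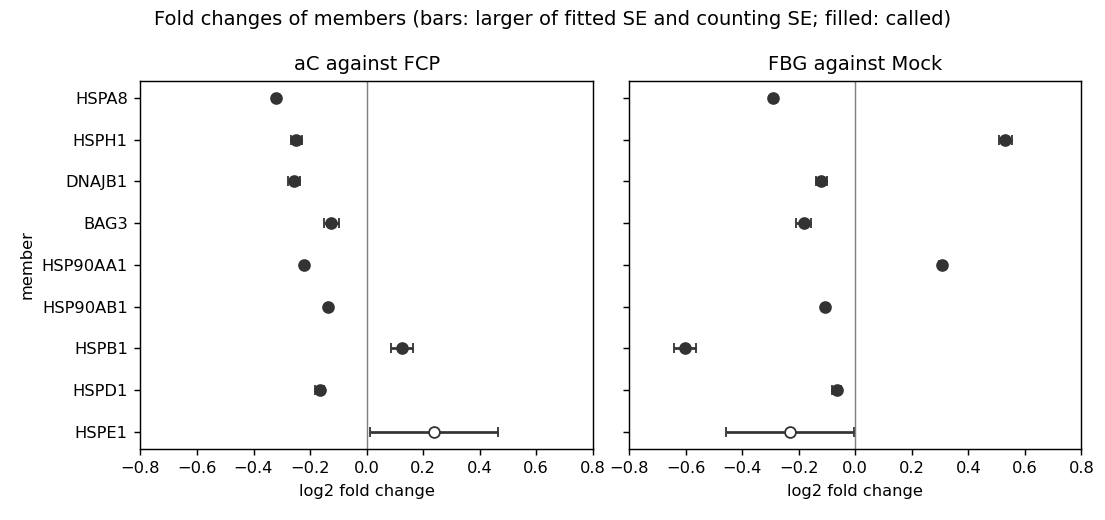
Log2 fold change of the 9 tested members (rows) in aC against FCP and in FBG against Mock, with bars for the larger of the fitted and the counting standard error and filled points for genes called at an adjusted p under 0.05. In aC against FCP 7 members lie below 0, from -0.32 for HSPA8 to -0.13 for BAG3, and in FBG against Mock HSPH1 stands at 0.53 and HSPB1 at -0.60.

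The level per kilobase of exon (RPKM, from the TMM-scaled library sizes) put the members in nearly one order in every group. In aC, HSPA8 had 951 RPKM, HSP90AB1 777, HSP90AA1 553, HSPD1 294, HSPB1 109, DNAJB1 58.3, BAG3 52.1, HSPH1 46.9 and HSPE1 4.02 RPKM. FCP had the same order, with BAG3 at 56.8 ± 0.329 and HSPH1 at 55.7 ± 0.0662 RPKM (SD, n = 2) as the closest neighbours. In FBG, DNAJB1 at 117 ± 1.29 RPKM stood above HSPB1 at 110 ± 1.39 RPKM, and in Mock HSPB1 at 167 ± 2.72 RPKM stood above DNAJB1 at 128 ± 3.06 RPKM. The lengths are those of all annotated exons of a gene, so genes with long alternative exons come out low. The 10 entries together took 0.852% and 0.857% of all counts in aC, 0.986% and 0.991% in FCP, 1.04% in both FBG libraries, and 1.03% and 1.02% in Mock. The share was lowest in aC, and FBG and Mock lay above FCP.

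Reads of HSPA8 and HSP90AB1 could in principle be lost to, or gained from, processed pseudogenes. RefSeq names 20 pseudogenes of HSPA8 and 6 of HSP90AB1, and the count files list 1 of these, HSP90AB4P, with 12 counts in all libraries, 0.00337% of the HSP90AB1 counts. No 100-base word of the HSPA8 transcript was shared with another gene of the GENCODE 29 transcripts, and 1.59% of those of HSP90AB1 were shared with HSP90AB3P. For the other HSP90 gene, HSP90AA1, the share was 4.63%, and for HSPD1, with 22 pseudogenes in RefSeq, it was 3.9%. Adding the counts of the listed pseudogene and of the read-through gene changed no member's call in any of the 6 comparisons. So few counts could hardly move a call, and no HSPA8 pseudogene was listed. Reads that map to several copies are not counted, so this does not measure reads lost to pseudogenes.

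HSPA1A and HSPA1B, the heat-inducible HSP70 genes and close copies of each other, are not in the set but show how the annotation affects this family. Each has 5 entries, on chromosome 6 and on alternate sequences. The chromosome 6 entry of HSPA1B had 0 counts in every library. Summed over entries, an alternative added after the data were seen, HSPA1A had 14.4 and 15.6 CPM in aC, 20.3 and 21 CPM in FCP, 32.3 and 33.5 CPM in FBG, and 23.6 and 23.7 CPM in Mock. HSPA1B summed had 13 and 11.6 CPM in aC, 17.7 and 17.3 CPM in FCP, 42.9 and 42.7 CPM in FBG, and 41.3 and 35.2 CPM in Mock. Both were lowest in aC, without overlap between aC and FCP. Summed, HSPA1A was lower in aC than in FCP, at -0.46 ± 0.0738 on the log2 scale (adjusted p = 7.89e-05, edgeR), as was HSPA1B, at -0.51 ± 0.0804 (adjusted p = 6.91e-05, edgeR), and reads that map to several entries are not in these sums. HSPA6, which is nearly silent without stress, had 0.846 and 0.888 CPM in aC and 0.612 and 0.611 CPM in FCP and was not called (log2 fold change 0.50 ± 0.386, adjusted p = 0.545, edgeR).

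**Figure D3:**
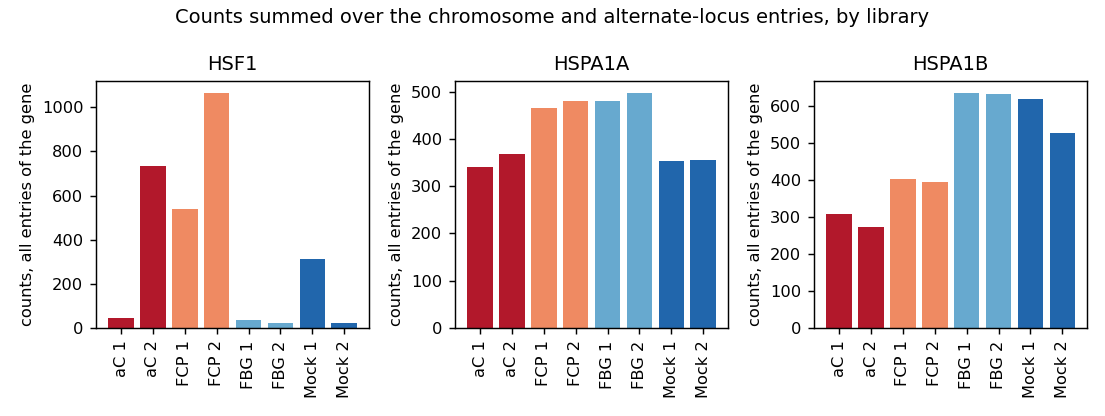
Counts per library, unscaled, summed over the chromosome entry and the alternate entries of HSF1, HSPA1A and HSPA1B (vertical axes, linear, from 0). The HSF1 bars differ within groups, with 46 and 733 counts in aC, whereas the HSPA1A bars lie close within groups, with 341 and 369 counts in aC and 465 and 480 in FCP.

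The wider chaperone network was read from lists of 88 further genes, of which 75 were tested. The lists, like the members, were chosen with earlier results of these data known, so their counts are not an independent test. In aC against FCP 23 of the 75 fell and 2 rose, 33.3% called against 9.01% of all genes, with a median log2 fold change of -0.05. Of the 49 with a mean of at least 50 CPM, 21 fell and 2 rose, again with the 23% of abundant genes as the background. The HSP90 co-chaperones had 5 of 12 lower and 1 higher. STIP1, which bridges HSP70 and HSP90, had 390 and 396 CPM in aC and 448 and 442 CPM in FCP (-0.18 ± 0.0167, adjusted p = 1.1e-07). PTGES3, the p23 co-chaperone, and FKBP4, an immunophilin of steroid receptor complexes, fell by 0.16 each. FKBP5, an immunophilin that lowers receptor affinity for hormone, was the member of that list that rose, by 0.07 ± 0.0156 (adjusted p = 0.00442).

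Of the cytosolic chaperonin TRiC and its partner prefoldin, 7 of 13 tested subunits fell, all 7 of them TRiC subunits, with a median log2 fold change over the 13 of -0.10. Over all genes 4.45% were called lower, and among abundant genes 13.5%. TCP1 had a log2 fold change of -0.19, CCT5 of -0.12 and CCT6A of -0.12. Among the other J-domain proteins 5 of 15 fell, with DNAJA1 at -0.11, DNAJA2 at -0.15 and DNAJC7 at -0.13. Among the other exchange and ubiquitin co-chaperones, ST13, which stabilises the HSP70-client complex, fell by 0.10, and HSPBP1, an exchange factor that restrains HSP70, rose by 0.20 ± 0.0471 (adjusted p = 0.00653, edgeR). HSPA4, an HSP110 relative of HSPH1, fell by 0.11.

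The endoplasmic reticulum has its own chaperones, which the unfolded protein response and not HSF1 mainly controls. Of these, counted apart from the 75, 6 of 12 fell in aC against FCP, where 4.45% of all genes and 13.5% of abundant genes were called lower. HSPA5, the HSP70 of that compartment, had 1170 and 1190 CPM in aC and 1330 and 1330 CPM in FCP, a change of -0.17 ± 0.00346 (adjusted p = 3.1e-17, edgeR). As for HSP90AB1, this fitted SE is smaller than the counting SE, so the p-value overstates the evidence. CALR fell by 0.07, and PDIA3 fell by 0.12. In mitochondria, HSPA9, the matrix HSP70, fell by 0.06, and 8 of the 9 tested genes of that list beside HSPD1 and HSPE1 were not called. Of the 75 genes above, 19 are known as heat-induced HSF1 targets, and 10 of these fell. They are part of the count given for the 75 and not a further set. Beside these counts, 2 of 9 bronchial epithelial markers rose and 2 fell. TP63, a basal cell transcription factor, rose by 0.46 ± 0.0494 (edgeR, adjusted p = 9.83e-07), a larger change than that of any tested member, and KRT17 rose by 0.10. KRT18 fell by 0.13, and KRT8 fell by 0.10. Of 6 tested fibroblast markers 1 rose, COL1A1 by 0.09. The part of these markers in the members' changes was not tested.

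**Figure D4:**
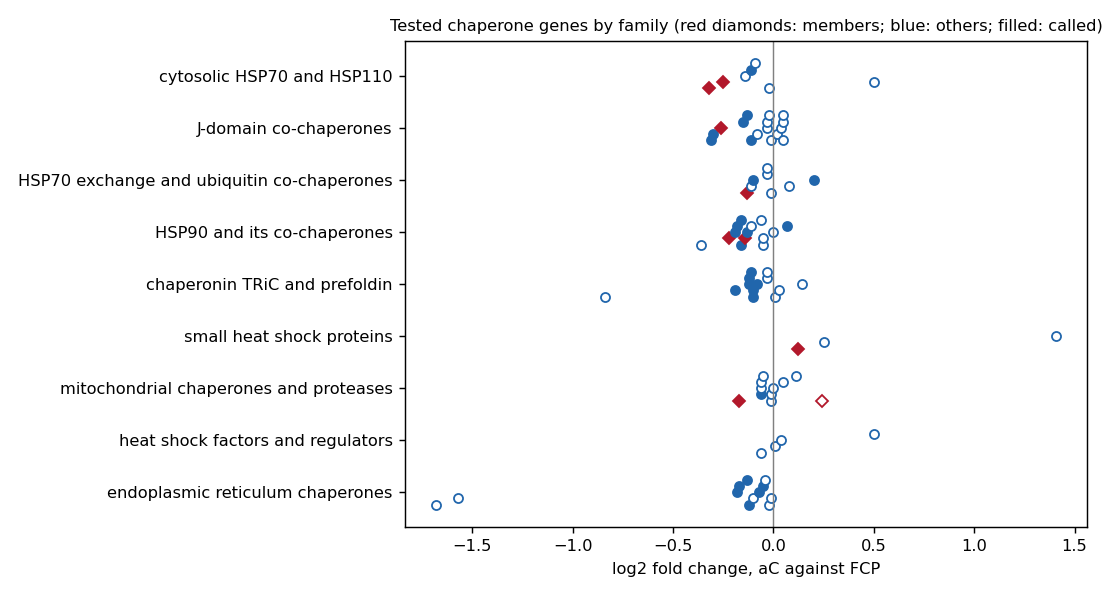
Log2 fold change in aC against FCP (horizontal axis) of the tested chaperone genes by family (rows), with red diamonds for the members, blue circles for other genes and filled symbols for genes called at an adjusted p under 0.05. Filled symbols lie below 0 except HSPB1 at 0.12, HSPBP1 at 0.20 and FKBP5 at 0.07.

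FBG against Mock, the pair on the other side of the division, showed another pattern. Of 9 tested members 2 rose and 6 fell, 8 called where 50.4% of all genes were called, 24.2% as higher and 26.3% as lower. Among the abundant genes, which include all tested members but HSPE1, 81.9% were called, 30.1% as higher and 51.8% as lower, so the members' count is close to that background. HSPH1 rose by 0.53 ± 0.0214 (adjusted p = 2.93e-15, edgeR) and HSP90AA1 by 0.31 ± 0.0111 (adjusted p = 3.19e-05, edgeR). HSPB1 fell by 0.60 ± 0.0387, and HSPA8 fell by 0.29 ± 0.00519. These 4 kept direction and call in all 19 other settings, HSPB1 at -0.31 and HSPH1 at 0.26 with the GC and length trends removed. BAG3 at -0.18 and DNAJB1 at -0.12 were called lower, and turned to 0.04 for BAG3 and 0.06 for DNAJB1 there. HSP90AB1 at -0.11 and HSPD1 at -0.07 were called lower, and turned to 0.01 for HSP90AB1 and 0.05 for HSPD1 with scaling to library size alone. HSPE1 at -0.23 ± 0.225 was not called. The split of called members was 3 higher and 4 lower with the trends removed, and 3 higher and 3 lower with library size alone. Fold changes in this pair followed the GC content of the transcript across 13569 genes (Spearman's rho -0.42, across genes, which are not independent replicates). The other pairs showed weaker relations. The same rho was 0.16 in aC against FCP, -0.28 in FCP against Mock and -0.25 in aC against Mock. Against FBG it was -0.09 for FCP and -0.05 for aC. The members range in GC from 40% in HSPH1 to 64.5% in HSPB1.

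Scaling by library size alone moved the median of all genes in FBG against Mock to 0.13, against 0.02 with TMM, in FCP against Mock to 0.28, against 0.06, and in aC against Mock to 0.29, against 0.06. In aC against FCP it moved it to 0.01, against 0, and no member changed direction there.

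Against Mock, 9 of 9 tested members were called in FCP, 3 higher and 6 lower, where 73.4% of all genes were called, 37.3% as higher and 36.1% as lower, and 9 of 9 in aC, 2 higher and 7 lower, where 74.7% were called, 38% as higher and 36.7% as lower. These 2 comparisons share the Mock libraries. Among the abundant genes, 91.7% were called in FCP, 32.3% as higher and 59.4% as lower. In aC 92.7% of them were called, 32% as higher and 60.7% as lower. The number of members called is therefore close to that background. HSPA8 fell, with log2 fold changes of -0.86 ± 0.00491 in FCP and -1.18 ± 0.00569 in aC (SE). DNAJB1 also fell, at -0.87 ± 0.0208 in FCP and -1.13 ± 0.0211 in aC. HSP90AA1 rose by 0.38 ± 0.00672 in FCP and by 0.16 ± 0.00753 in aC. Larger changes than that of HSPA8 were shown by 37.5% of all genes and 21.3% of the abundant ones in FCP, and by 27% of all genes and 10.2% of the abundant ones in aC. With the GC and length trends removed DNAJB1 stood at -0.45 in FCP and -0.71 in aC, and with scaling to library size alone HSP90AA1 stood at 0.60 in FCP and 0.39 in aC. With the trends removed 6 members were called in FCP, 4 higher and 2 lower, and 7 in aC, 2 higher and 5 lower. With library size alone 9 were called in FCP, 4 higher and 5 lower, and 7 in aC, 3 higher and 4 lower.

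HSPH1 was higher than Mock by 0.43 in FCP in all settings, with the lowest value 0.07, and by 0.18 in aC, which turned to -0.16 with the GC and length trends removed. HSP90AB1 differed from Mock by 0.01 in FCP, while the median of 766 tested chromosome 6 genes was 0.48. It counts among the members called higher, but its fitted SE of 0.00213 is smaller than the counting SE of 0.00687. The call was lost in 6 of 19 other settings and the sign changed in 2. HSPB1 at -0.75 and BAG3 at -0.39 in FCP both turned to 0.01 with the GC and length trends removed.

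Against FBG, 8 of 9 members were called in FCP, 2 higher and 6 lower, where 66.8% of all genes were called, 32.6% as higher and 34.2% as lower, and 7 of 9 in aC, all lower with this scaling, where 68.3% were called, 34.5% as lower and 33.8% as higher. In aC, 2 members were called higher and 5 lower with the GC and length trends removed, and 2 higher and 6 lower with library size alone. In FCP, 4 were called higher and 3 lower with the trends removed, and 3 higher and 4 lower with library size alone. These comparisons share the FBG libraries. Among the abundant genes, 86.2% were called in FCP, 32.2% as higher and 54.1% as lower. In aC 87.1% of them were called, 31.8% as higher and 55.3% as lower. The number of members called is therefore close to that background. HSPA8 fell, at -0.57 in FCP and -0.89 in aC, and DNAJB1 fell, at -0.75 in FCP and -1.01 in aC, and both kept direction and call in all 19 other settings. HSPH1 fell by 0.35 ± 0.0202 in aC, also in all of them. HSP90AB1, at -0.02, counts among the members called lower in aC, but its fitted SE of 0.00237 is smaller than the counting SE of 0.00714. It lost the call in 4 of the 19 settings and changed sign in 4. HSP90AA1 rose by 0.07 ± 0.00593 in FCP and fell by 0.15 ± 0.00661 in aC, with calls kept in all settings. The value in aC was -0.03 both with the trends removed and with library size alone, and that in FCP was 0.17 with the trends removed and 0.18 with library size alone. HSPD1 in FCP and HSPB1 in aC both stood at -0.02 and were not called, but with the GC and length trends removed both were called higher, HSPD1 at 0.14 (edgeR, adjusted p = 3.66e-13) and HSPB1 at 0.34 (edgeR, adjusted p = 4.92e-10).

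The ratio of HSPH1 to HSPA8 per length, which compares an exchange factor with its HSP70, was 0.0489 and 0.0497 in aC, 0.0469 and 0.0468 in FCP, 0.034 and 0.0338 in FBG, and 0.0193 and 0.0191 in Mock. It did not overlap between groups and was lowest in Mock. The ratio of DNAJB1 to HSPA8 was 0.0613 and 0.0612 in aC, 0.0584 and 0.0588 in FCP, 0.0669 and 0.0661 in FBG, and 0.0579 and 0.0604 in Mock, a narrower span in which Mock overlapped FCP. The ratio of BAG3 to HSPA8 was 0.0551 and 0.0544 in aC, 0.0481 and 0.0475 in FCP, 0.0365 and 0.0377 in FBG, and 0.0347 and 0.0342 in Mock.

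**Figure D5:**
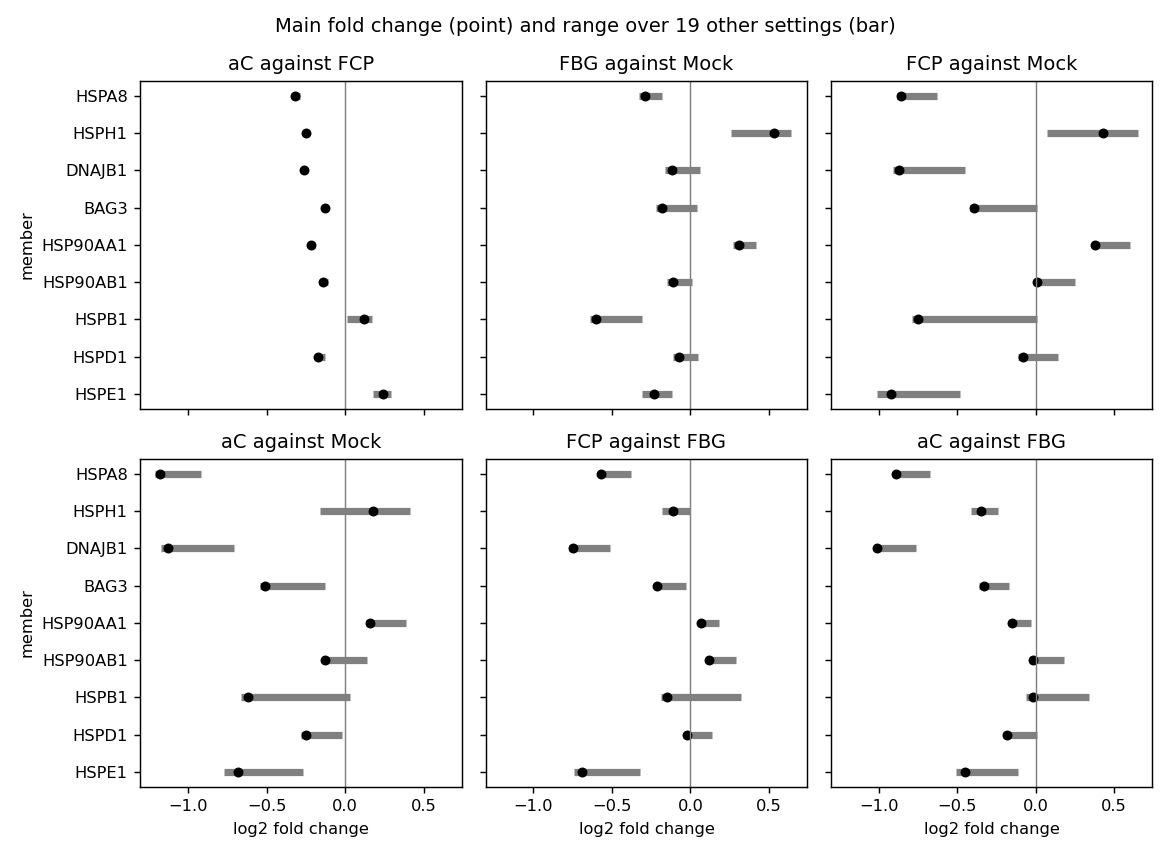
Log2 fold change of the 9 tested members (rows) in the 6 comparisons (panels), with a point for the fit reported here and a bar for the range over 19 other settings. In aC against FCP the bars are short and only HSPB1 comes close to 0, from 0.01 to 0.17, while in the pairs across the division HSPB1, BAG3, HSP90AB1, HSPD1 and HSPH1 reach or cross 0 in at least 1 panel.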

How the data were processed

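The authors deposited unnormalized counts, 1 per gene and library. Per the file headers they ran featureCounts 1.6.0 in paired-end mode on exons grouped by gene, and no option for strand, multi-mapping or multi-overlap was set. The submitters' processing notes give featureCounts 1.6.2 and also name Trimmomatic 0.39, HISAT2 2.2.1, SAMtools 1.9 and GRCh38.p14. A read on several copies, or on exons of 2 genes, is then not counted.

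Counts were tested with edgeR 4.0.16 in R 4.3.3 (quasi-likelihood, robust, TMM, filterByExpr), all 8 libraries in 1 fit with 4 residual degrees of freedom, after a check on simulated data. P-values were adjusted by Benjamini-Hochberg over the 16307 tested genes in each of 6 comparisons, and a gene was called under 0.05. Standard errors are the fold change over the square root of the F statistic. Alternatives were DESeq2 1.42.0, other scalings, no filter, the 2 groups alone, a replicate block, loess removal of GC and length trends, copies left out or summed, and each library left out.

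The members and lists were chosen with earlier results of these data known. All members are named, and of each other list up to 3 called genes by p in each direction. The labels call the libraries biological replicates without saying what was repeated, so p-values measure the spread between them. Pseudogenes and promoters came from RefSeq tables of GRCh38.p14, and transcript words and GC content from GENCODE 29.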

Additional observations from a re-analysis of the deposited data

How the results depend on the processing

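In aC against FCP the falls of HSPA8, HSPH1, DNAJB1, BAG3, HSP90AA1, HSP90AB1 and HSPD1 kept direction and call in all 19 other settings, while HSPB1 lost its call in 8. Over the 6 comparisons 949 of 1026 alternative results kept direction and call, 37 lost the call and 40 changed sign. Leaving out 1 library gave 7 to 8 members called in aC against FCP, 8 in FBG against Mock, 8 to 9 against Mock for both FCP and aC, and, against FBG, 7 to 8 for FCP and 6 to 7 for aC. Equal replicate numbers showed no shared deviation (correlations of -0.02 to 0.02). The spread within groups was little above counting noise, so this cannot decide whether equal numbers were paired, and the labels do not say. The replicate block ended 1 call, HSPB1 in aC against FCP (0.13, adjusted p = 0.0561), leaving 7 members called there, and left the members called at 8 in FBG against Mock, 9 against Mock for both FCP and aC, and, against FBG, 8 for FCP and 7 for aC. With GC and length trends removed, with or without the replicate block, the sign changed for HSPB1 (0.01 in FCP and 0.03 in aC against Mock, 0.32 in FCP and 0.34 in aC against FBG), BAG3 (0.04 in FBG and 0.01 in FCP against Mock), DNAJB1 (0.06 in FBG against Mock), HSP90AB1 (in aC, 0.14 against Mock and 0.18 against FBG), HSPD1 (0.04 in FCP against Mock, 0.14 in FCP and 0.01 in aC against FBG) and HSPH1 (-0.16 in aC against Mock). With library size alone it changed for HSP90AB1 (0.01 in FBG and 0.10 in aC against Mock, 0.10 in aC against FBG), HSPD1 (0.05 in FBG and 0.14 in FCP against Mock, 0.09 in FCP against FBG), HSPB1 (0.09 in aC against FBG) and HSPH1 (0 in FCP against FBG). The remaining sign changes were from values near 0: HSP90AB1 in FCP against Mock with DESeq2 (-0.01) and without Mock replicate 2 (0), HSP90AB1 in aC against FBG (0) and HSPD1 in FCP against FBG (0) with RLE size factors, HSPD1 in FCP against FBG without the filter (0), and HSPB1 in aC against FBG with 1 library left out (-0.06 to 0.01, highest without aC replicate 1). The cause of these changes was not tested. Genes called in aC against FCP numbered 1470, 888 with DESeq2, 2333 with copied genes left out and 853 to 1616 with 1 library left out. Library size alone moved the calls of FBG against Mock to 5186 higher and 3010 lower, from a main split of 3941 and 4285, of FCP against Mock to 7679 and 4493 (main 6085 and 5884), of aC against Mock to 7782 and 4489 (main 6199 and 5984), of FCP against FBG to 6343 and 4598 (main 5319 and 5569), of aC against FBG to 6538 and 4673 (main 5511 and 5628), and of aC against FCP to 828 and 574 (main 745 and 725). A count of 3 corresponds to 0.135 to 0.198 CPM, and HSF1 on chromosome 8 lay below that in all libraries.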
